A study of Mus musculus with 79 samples.

Results

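The 40 genes described here encode the contractile apparatus of skeletal muscle and the proteins that feed it with calcium, energy and oxygen. They were taken as a fixed list of gene symbols, and all 40 were measured, each by 1 transcript cluster, among 19505 genes with a symbol on the array. They were followed in 79 mammary tumors, taken whole from female C57BL/6J mice, 1 array per tumor, on Clariom S Mouse HT arrays that give a log2 signal per gene. Mice were 8 to 9 weeks old at the start and 33 to 34 weeks at the end. Control mice (Con) ate a diet with 10 kcal% fat, and obese mice (DIO) ate one with 60 kcal% fat. In the ConSul and DIOSul groups the same diets carried 140 ppm sulindac, an inhibitor of COX1 and COX2. After 15 weeks of diet and 5 further weeks with or without the drug, per the study's methods, 20000 cells were injected into mammary fat pad 4, while the sample labels put the injection 5 weeks after the first randomization. The cells were E0771, a mouse mammary carcinoma line, or metM-Wnt-lung or metM-Wnt-liver, subclones of the M-Wnt line taken from a lung and a liver metastasis, so that each model is a transplanted line in a mammary fat pad. E0771 had 6 Con, 6 ConSul, 8 DIO and 8 DIOSul tumors, metM-Wnt-lung had 6, 6, 7 and 7, and metM-Wnt-liver had 7, 4, 7 and 7, which makes 12 sets. The 40 genes lie on 14 chromosomes, with 8 on chromosome 7 and 7 on chromosome 11.

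In a skeletal muscle fiber, myosin heavy and light chains form the thick filament and pull on thin filaments of actin, while troponin and tropomyosin on the thin filament open the myosin sites when calcium is released from the sarcoplasmic reticulum. Fast fibers use fast isoforms of myosin, troponin and the calcium pump, and slow fibers carry slow isoforms that are partly shared with the heart. Mammary fat pads lie over skeletal muscle of the body wall, while sarcomeres are not a feature of mammary carcinoma cells. From which cells the members' RNA came in these tumors was not tested. In whole tumor RNA, fewer cells of a type and less RNA per cell cannot be told apart.

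Before the members' values, the sequences upstream of 4 of them are shown, because Acta1, Ckm, Myh4 and Myh7 stand for the thin filament, the energy supply, the fast thick filament and the slow thick filament in what follows. Each is the 250 bases before the transcription start, read 5′ to 3′ on the strand of the gene, from RefSeq on build GRCm38.p6. The window of Acta1 (skeletal alpha actin) is chr8:123894776-123895025 on the minus strand, that of Ckm (muscle creatine kinase) chr7:19410844-19411093 on the plus strand, that of Myh4 (the fast IIb myosin heavy chain) chr11:67237562-67237811 on the plus strand, and that of Myh7 (the slow myosin heavy chain) chr14:54994627-54994876 on the minus strand, the first of 2 windows of that gene. Capitals mark matches on either strand to the E-box CANNTG, which bHLH factors such as MyoD bind, the MEF2 site, the CArG box bound by SRF, and the MCAT element CATTCC bound by TEAD factors.
Acta1: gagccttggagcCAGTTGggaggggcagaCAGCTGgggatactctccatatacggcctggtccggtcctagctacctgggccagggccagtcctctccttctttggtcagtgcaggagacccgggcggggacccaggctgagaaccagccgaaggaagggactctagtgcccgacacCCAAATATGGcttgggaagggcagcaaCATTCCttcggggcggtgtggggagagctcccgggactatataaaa
Ckm: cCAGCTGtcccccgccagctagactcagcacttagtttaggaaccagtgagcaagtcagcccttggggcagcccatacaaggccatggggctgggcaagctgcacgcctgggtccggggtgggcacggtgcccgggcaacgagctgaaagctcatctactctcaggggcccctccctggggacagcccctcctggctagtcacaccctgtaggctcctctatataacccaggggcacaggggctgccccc
Myh4: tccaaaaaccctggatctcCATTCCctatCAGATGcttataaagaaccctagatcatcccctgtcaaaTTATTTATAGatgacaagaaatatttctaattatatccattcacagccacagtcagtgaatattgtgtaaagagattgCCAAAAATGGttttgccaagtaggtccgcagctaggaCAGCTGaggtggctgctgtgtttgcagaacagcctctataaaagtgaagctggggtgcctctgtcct
Myh7: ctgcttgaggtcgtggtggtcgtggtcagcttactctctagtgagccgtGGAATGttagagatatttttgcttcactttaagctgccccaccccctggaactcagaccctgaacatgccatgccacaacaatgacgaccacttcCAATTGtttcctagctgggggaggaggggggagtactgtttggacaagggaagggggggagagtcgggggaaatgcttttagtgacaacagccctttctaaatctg
The Myh4 window held at least 1 match to each of the 4 motifs, and the Ckm window only 1 E-box.

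Such windows were found for 32 of the 40 members. Actn3, Cacng1, Myoz1, Neb, Tcap, Tnni2, Tnnt3 and Trdn had none in the table used. An E-box was present in 27 of 32 members (84.4%) and in 66.0% of the windows of all 27025 genes. The E-box CAGCTG, which is 1 form of CANNTG, was present in 15 of 32 (46.9%) against 12.8% of all genes. A MEF2 site was found in 7 of 32 (21.9%) against 3.01%, in the genes Myh1, Myh4, Myoz2, Pgam2, Pvalb, Ttn and Xirp2. The CArG box occurred in Acta1, Ldb3, Myh4 and Myl3, 4 of 32 (12.5%) against 1.40%. MCAT elements occurred in 9 of 32 (28.1%) against 12.6%. All 5 shares were above those of all genes. These are matches of letters and not sites shown to be bound. Each gene was counted by its first listed window, and some windows, such as those of Tnni1, Eno3 and Myl1, lie inside the span of the gene.

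Across the 79 arrays the members spanned wide ranges. Acta1 ran from 4.14 to 17.85 on the log2 scale with a median of 7.62, and Atp2a1, the fast-fiber calcium pump SERCA1, from 2.58 to 17.00 with a median of 5.70. The smallest distance from median to highest array was that of Myl3, a slow and ventricular myosin light chain, which ran from 3.45 to 6.79 with a median of 4.37. The highest array was metM-Wnt-lung DIOSul 5 for Acta1 and Atp2a1 and E0771 DIOSul 6 for Myl3. For every member the array with the highest signal was one of 5 tumors, and that order of arrays was largely shared. With set means removed, each gene correlated with the mean of the other 39 members over the 79 arrays at a Pearson r of 0.74 (Eno3) to 0.98 (Tnnc2), the genes sharing the same arrays and scaling. Lowest after Eno3, the muscle enolase, were Myl3 at 0.78, the mitochondrial creatine kinase Ckmt2 at 0.82, Myh7 at 0.88 and beta tropomyosin Tpm2 at 0.89.

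An array score was formed as the mean over the 40 members of the log2 signal less the gene's median over all 79 arrays, so that 0 is a typical array and 2 a mean rise of 4-fold. Arrays scoring above 2 were listed as arrays with muscle tissue in the sense of the members alone, without histology. There were 18 of 79. The highest was metM-Wnt-lung DIOSul 5 at 6.74, with 39 of 40 members over 2 log2 units above their medians. E0771 DIOSul 6 followed at 5.98 with 40 of 40, and metM-Wnt-lung ConSul 4 at 5.55 with 38. The next were metM-Wnt-lung Con 1 at 5.42, E0771 Con 1 at 5.29 and E0771 ConSul 2 at 5.27. Scores between 4 and 5 belonged to metM-Wnt-liver DIOSul 3 (4.88), metM-Wnt-lung DIO 6 (4.80), metM-Wnt-lung Con 6 (4.29), metM-Wnt-liver ConSul 3 (4.28) and metM-Wnt-liver DIO 7 (4.16). In those 11 tumors at least 34 members were over 2 units above their medians, so most of the genes were high in each. The other 7 were E0771 DIOSul 2 (3.52), E0771 ConSul 1 (3.16), metM-Wnt-lung DIOSul 1 (2.89), metM-Wnt-lung ConSul 5 (2.84), E0771 ConSul 6 (2.71), metM-Wnt-lung DIOSul 4 (2.60) and metM-Wnt-lung Con 2 (2.28). In these 20 to 30 members were that far above their medians. Just below the threshold lay metM-Wnt-liver DIOSul 4 at 1.59, metM-Wnt-liver Con 5 at 1.58 and E0771 ConSul 3 at 1.25. A threshold of 1 gave 23 arrays and a threshold of 3 gave 13.

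**Figure D1:**
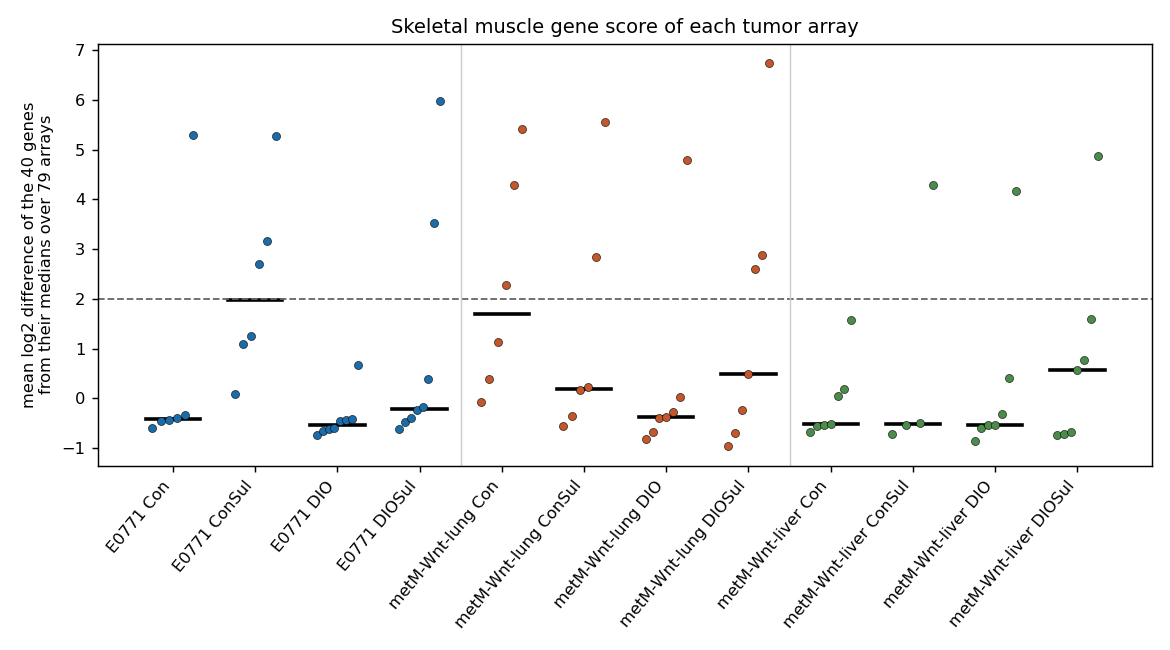
Array score (mean log2 difference of the 40 genes from their medians over 79 arrays) for every tumor, by set. Each point is 1 array, the black bars are set medians and the dashed line marks a score of 2, which 18 arrays exceed, up to 6.74 in metM-Wnt-lung DIOSul.

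Listed arrays came from 10 of the 12 sets. By condition they made up 4 of 19 Con, 6 of 16 ConSul, 2 of 22 DIO and 6 of 22 DIOSul tumors, and by line 6 of 28 E0771, 9 of 26 metM-Wnt-lung and 3 of 25 metM-Wnt-liver tumors. Within E0771 they were 1 of 6 Con, 3 of 6 ConSul, 0 of 8 DIO and 2 of 8 DIOSul tumors. The metM-Wnt-lung sets gave 3 of 6, 2 of 6, 1 of 7 and 3 of 7, and the metM-Wnt-liver sets 0 of 7, 1 of 4, 1 of 7 and 1 of 7, in the same order. Of the tumors from sulindac-fed mice 12 of 38 were listed, and 6 of 41 of the others. Tumors from obese mice gave 8 of 44 and those from lean mice 10 of 35. These counts were not tested. The set medians of the score ran from -0.53 in E0771 DIO and metM-Wnt-liver DIO to 1.98 in E0771 ConSul, and the highest array of a set from 0.67 in E0771 DIO to 6.74 in metM-Wnt-lung DIOSul. In E0771 ConSul all 6 arrays scored above 0 (0.09 to 5.27), while in E0771 Con 5 of 6 lay at -0.33 or below and the other at 5.29.

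The members differed in how far down the list they stayed high. Among the myosin heavy chains, the motors that set a fiber's speed, Myh2 (IIa) and Myh4 (IIb) were over 2 units above their medians in 18 of 18 listed arrays, Myh1 (IIx) in 17 and Myh7 in 11. Myh4 lay between 10.18 and 16.86 in the listed arrays and between 3.81 and 10.97 in the other 61. Myh7 lay between 3.92 and 8.83 against 3.67 to 5.49. Myh1, Myh2 and Myh4 are neighbours within chr11:67171027-67260447 and close in sequence, and how far their probes tell them apart was not examined. Of the light chains, Myl1 and Mylpf, the fast essential and regulatory chains, passed that level in 18 of 18, the slow regulatory Myl2 in 14 and Myl3 in 1 (E0771 DIOSul 6). Myl1 reached at least 13.49 in every listed array and at most 13.14 elsewhere, so the groups did not overlap, as the choice of arrays by these genes favours.

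On the thin filament, Acta1 and the fast troponins Tnnc2, Tnni2 and Tnnt3 (the calcium-binding, inhibitory and tropomyosin-binding subunits) were that high in 18 of 18 listed arrays. Neb, the giant ruler of the thin filament, was so in 16, the slow troponins Tnnc1 and Tnni1 in 12, and Tnnt1 and Tpm2 in 11. Acta1 spanned 11.95 to 17.85 in listed and 4.14 to 13.50 in other arrays, where metM-Wnt-liver Con 5 was highest. Mybpc1, a myosin-binding protein of slow and fast fibers, passed in 18, its fast relative Mybpc2 in 16 and Ttn, the elastic titin filament, in 10.

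At the Z-disc, where thin filaments are anchored, Des (desmin) and Myoz2 (a calsarcin of slow fibers and heart) passed in 18 of 18, the actinins Actn2 and Actn3 in 17, Xirp2 in 15, Ldb3 in 13, Tcap in 12 and Myoz1 in 11. Of the calcium genes, Atp2a1 and the calcium store protein Casq1 passed in 18, the calcium buffer Pvalb in 17, Trdn in 13, the channel subunit Cacng1 in 12 and the release channel Ryr1 in 10. Among metabolic genes the oxygen carrier Mb passed in 18, Pygm (muscle glycogen phosphorylase) in 17, Ckm in 16, Pgam2 (a glycolytic mutase) in 12, Ckmt2 in 5 and Eno3 in 2. Ckm spanned 8.28 to 14.54 in listed arrays and 6.26 to 9.23 in the others. Eno3 spanned 9.49 to 13.15 against 7.51 to 11.45, an overlap from 9.49 to 11.45. It was lower in E0771 than in the other lines, so its count from a median over all lines also carries that difference. Since the arrays were listed by these same genes, the counts describe the members and test nothing.

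**Figure D2:**
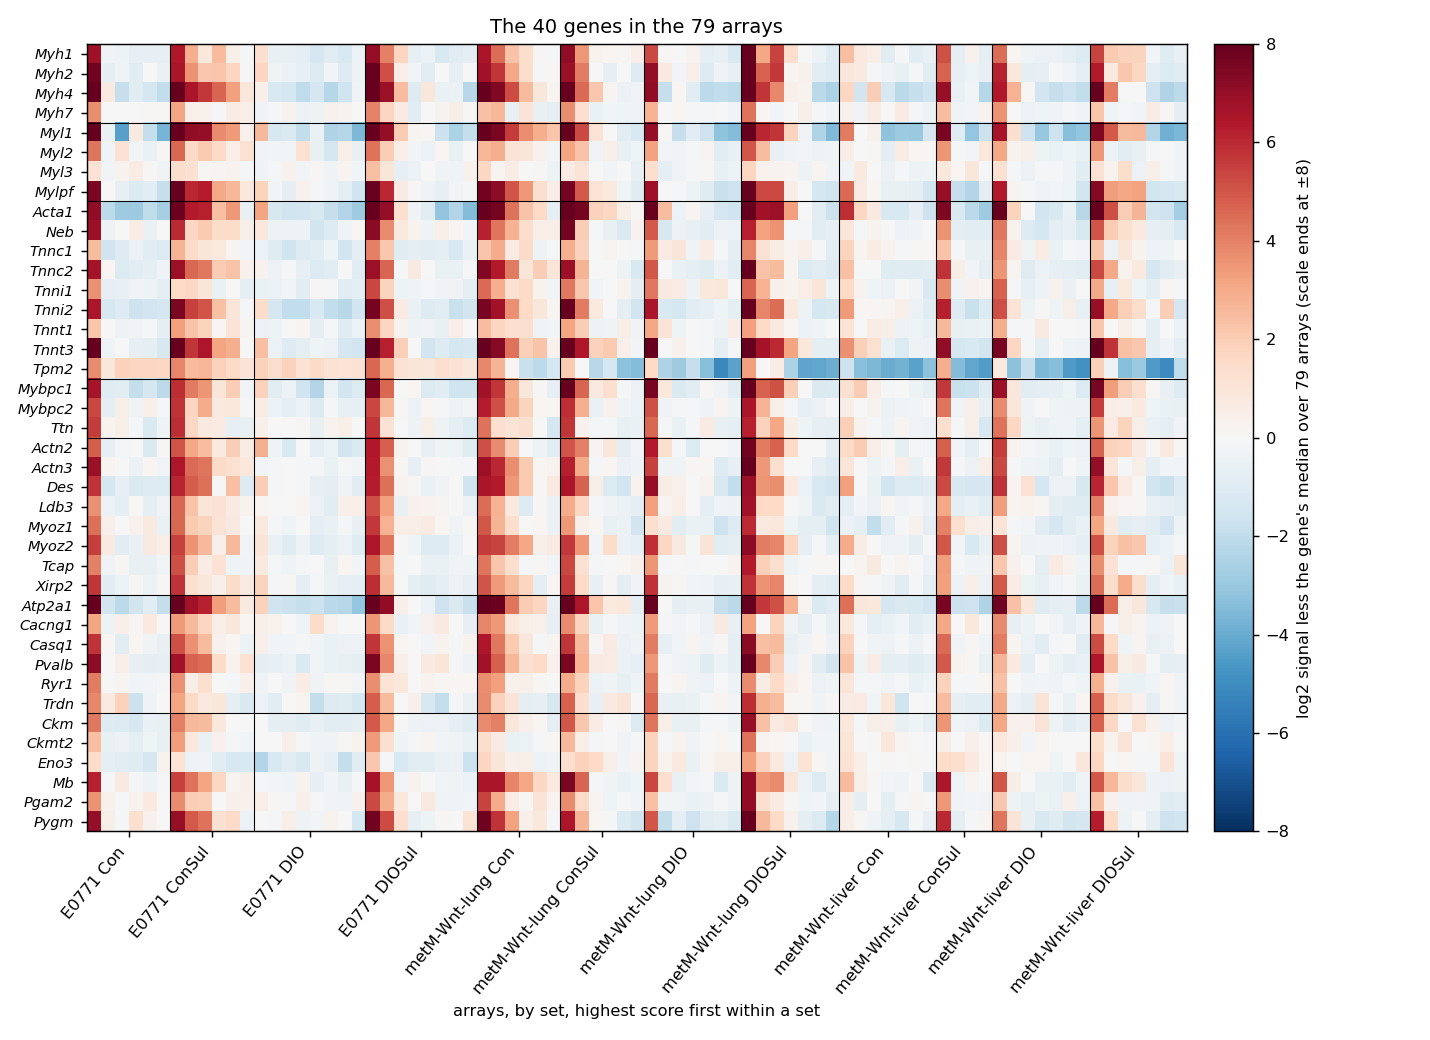
Log2 signal of the 40 genes (rows, grouped by role) less each gene's median over 79 arrays, in every array (columns, by set, highest score first within a set). Red is above and blue below the gene's median, and colors end at 8 log2 units in both directions. The columns of the listed arrays are mostly red, with 20 to 40 of 40 genes over 2 units and 40 in E0771 DIOSul 6, while the Eno3 and Myl3 rows stay pale.

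Fast and slow fiber genes were compared as the mean rise over 12 fast genes (Actn3, Atp2a1, Mybpc2, Myh1, Myh2, Myh4, Myl1, Mylpf, Pvalb, Tnnc2, Tnni2 and Tnnt3) less that over 7 slow genes (Myh7, Myl2, Myl3, Myoz2, Tnnc1, Tnni1 and Tnnt1), each rise counted from the gene's own median. In all 18 listed arrays the fast genes had risen more, by 1.97 to 4.70 log2 units with a median of 3.30. In the other 61 arrays the difference ran from -1.20 to 2.92 with a median of -0.44 and was above 0 in 20. The smallest difference among listed arrays was that of metM-Wnt-liver DIO 7, with a fast score of 5.48 and a slow score of 3.51. The largest was that of metM-Wnt-lung DIOSul 5, with 8.98 and 4.28. Slow fiber genes were raised as well, by 0.73 in metM-Wnt-lung DIOSul 4 to 4.32 in E0771 DIOSul 6.

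The 7 pairs of isoforms compared, each with the same place in the sarcomere, gave the same order with 1 exception. Myh4 rose more than Myh7 in 18 of 18 listed arrays, by 2.80 to 7.13 units. Myl1 exceeded Myl3 by 4.24 to 7.51, Mylpf exceeded Myl2 by 2.63 to 5.83, Tnnt3 exceeded Tnnt1 by 2.99 to 7.28, and Tnni2 exceeded Tnni1 by 0.46 to 5.90, each in 18 of 18. Tnnc2 exceeded Tnnc1 in 17, with a range of -0.37 to 5.17. In the calsarcin pair the order was turned. Of this pair Myoz2 is among the slow genes of the score above, while Myoz1 is not among its fast genes. Myoz1, the fast-fiber calsarcin, rose less than Myoz2 in 18 of 18, the difference lying between -4.51 and -0.61. These are differences of rises on the log2 scale and not of amounts. No detection calls were used, so whether a gene at its median stood above the background of the array was not determined. Mybpc1, of slow and fast fibers, and the fast Mybpc2 were not set as a pair. In listed arrays Mybpc1 rose by 2.93 to 8.73 units and Mybpc2 by 0.46 to 6.52, so the order depends on the pairs chosen.

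**Figure D3:**
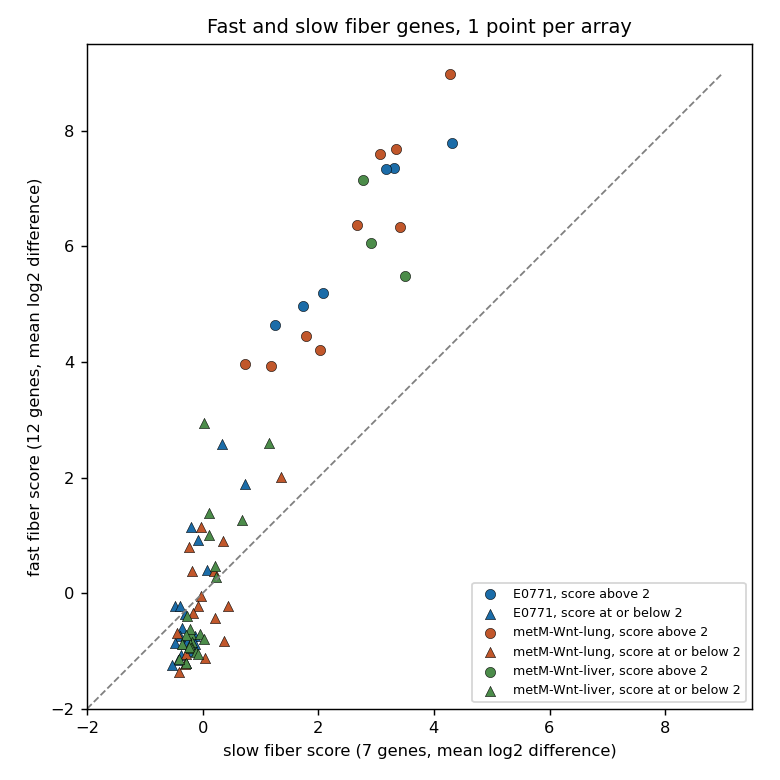
Fast fiber score (mean log2 difference of 12 genes from their medians, vertical) against slow fiber score (7 genes, horizontal), 1 point per array, colored by line, with circles for scores above 2 and triangles for the rest. The dashed line marks equal rises, and all 18 circles lie above it by 1.97 to 4.70.

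The 10 other genes most like the members' mean over the 79 arrays, with set means removed, were Myot (Pearson r 0.98), Klhl41 (0.98), Myh8 (0.98), Ankrd2 (0.96), Nrap (0.96), Ankrd23 (0.96), Lrrc2 (0.96), Hjv (0.96), Tmod4 (0.96) and Abra (0.95). Myot ran from 3.48 to 14.32 with a median of 4.96. Myh8, the perinatal myosin heavy chain, ran from 3.45 to 16.73 and was over 2 units above its median in all 18 listed arrays and in 12 others. It belongs to the same family of close sequences as Myh1, Myh2 and Myh4, with the same limit on telling them apart.

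A list of 34 other sarcomere and calcium genes was written beside the members, though with earlier results of these data known. Its score was above 1 in 16 of 18 listed arrays (range 0.77 to 3.31) and in 0 of the other 61 (-0.38 to 0.50). Klhl41, Myot, Csrp3 and Ankrd2 were over 2 units above their medians in 18 of 18. Isoforms that most cells make did not follow. Atp2a2 (SERCA2, 13.05 to 14.60 in listed and 13.59 to 14.54 in other arrays), Tpm1 and Tpm3 passed that level in none. Of 12 further metabolic genes of muscle, the fatty acid carrier Fabp3 passed in 15 and the cytochrome oxidase subunit Cox6a2 in 13, whereas Gys1, Phka1 and Slc2a4 passed in none. Trim63, an E3 ligase of muscle atrophy, passed in 16.

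A list of 13 myogenic and developmental genes scored above 1 in 12 of 18 listed arrays (0.48 to 2.06) and in 0 of the other 61 (-0.36 to 0.59). Its genes differed. Pax7 of satellite cells lay between 3.25 and 4.55 in listed and between 3.10 and 4.48 in other arrays, and neither it nor Myf5, Myod1 or Mymx passed 2 units in any array. Myog, which marks differentiating muscle cells, did in 1 listed array and was over 1 unit in 6 listed arrays and 2 others. The embryonic Myh3 passed 2 units in 2 listed arrays. Musk, a kinase of the neuromuscular junction, passed 2 units in 3 and was over 1 unit in 12 listed arrays and 1 other. Myf6, a myogenic factor of mature fibers, passed 2 units in 16 of 18 and Myh8 in 18. The 8 cardiac genes scored -0.19 to 1.26 in listed and -0.50 to 1.32 in other arrays. Myh6, Tnni3, Actc1, Myl7 and Nppa were over 2 units in none of the 79. Myl4, an atrial light chain, was so in 7 listed arrays and 1 other, the cardiac troponin Tnnt2 in 4 and 13, and the natriuretic peptide gene Nppb in 4 and 17.

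Scores of other cell types of the fat pad overlapped between listed and other arrays. Smooth muscle genes scored -0.51 to 1.20 in listed arrays and -0.81 to 1.60 in the others, and adipocyte genes -3.74 to 3.29 against -4.37 to 6.28. Keratinocyte genes, which mark skin, scored above 1 in 1 listed array and in 5 others, all 6 of them DIOSul tumors. The tendon list scored above 1 in 4 of 18 listed and 2 of 61 other arrays, and its gene Thbs4 was over 2 units above its median in 15 of 18.

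Some facts of the arrays bear on the comparisons between conditions. Array medians lay between 6.285 and 6.805. The 4 ConSul arrays of metM-Wnt-liver and the 6 Con arrays of metM-Wnt-lung had a wider spread than the other 41 metM-Wnt arrays, with 1st percentiles of 3.10 to 3.15 against 3.19 to 3.27 and 99th percentiles of 16.28 to 16.48 against 16.10 to 16.34. Both sets were also high in adipocyte genes, with scores of 1.17 to 3.65 and 0.47 to 6.28. Every comparison with 1 of these sets carries that difference, and condition and array spread cannot be told apart in it. Since the set that stands apart is Con in one metM-Wnt line and ConSul in the other, whether the Con and ConSul labels of either line were exchanged is not known. The labels were used as given, and exchanging them within a line turns the sign of its Con minus ConSul values and was run as an alternative.

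Levels of 4 members are given in every set. Acta1 ran from 4.74 to 14.74 with a median of 5.25 in E0771 Con, from 7.04 to 15.47 (median 12.45) in ConSul, from 4.76 to 10.77 (6.08) in DIO and from 4.14 to 15.72 (7.065) in DIOSul. In metM-Wnt-lung it ran from 6.92 to 15.84 (10.94), 7.72 to 17.39 (9.37), 6.02 to 17.09 (7.14) and 5.88 to 17.85 (10.90) in that order. In metM-Wnt-liver it ran from 5.97 to 13.50 (6.96) in Con, was 5.48, 4.75, 15.09 and 6.39 in the 4 ConSul tumors, and ran from 5.40 to 16.06 (7.09) in DIO and 4.91 to 16.66 (9.57) in DIOSul. Each set held arrays that differed by over 6 log2 units, and no pair of sets compared within a line was free of overlap. E0771 ConSul had the highest median, but its lowest array, at 7.04, lay inside the range of every other E0771 set.

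Ckm was narrower. In E0771 it ran from 6.26 to 11.74 (median 6.725) in Con, 7.55 to 11.60 (9.22) in ConSul, 6.57 to 7.58 (6.775) in DIO and 6.57 to 12.47 (7.115) in DIOSul. In metM-Wnt-lung it ran from 6.81 to 11.61 (8.195), 6.43 to 12.50 (7.89), 6.94 to 11.81 (7.41) and 7.21 to 14.54 (8.28) for Con, ConSul, DIO and DIOSul. In metM-Wnt-liver Con it ran from 6.78 to 8.37 (7.39), the ConSul tumors had 7.06, 6.47, 11.05 and 7.23, DIO ran from 6.71 to 10.62 (7.91) and DIOSul from 7.10 to 12.28 (7.89). Only in E0771 DIO and metM-Wnt-liver Con did no array exceed 9.

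Myh4 ran from 4.37 to 15.40 (median 5.19) in E0771 Con, 7.25 to 15.30 (11.485) in ConSul, 4.07 to 6.76 (4.93) in DIO and 4.11 to 15.81 (6.57) in DIOSul. In metM-Wnt-lung it ran from 6.55 to 15.47 (10.20), 5.89 to 15.36 (7.51), 4.22 to 13.45 (4.51) and 3.81 to 16.86 (6.75) for the same conditions. In metM-Wnt-liver Con it ran from 4.16 to 8.29 (4.87), the ConSul tumors had 6.10, 4.05, 13.27 and 5.73, DIO ran from 4.33 to 12.74 (4.79) and DIOSul from 3.94 to 15.68 (6.33). The set medians of Myh4 lay between 4.51 and 5.19 in E0771 Con and DIO, metM-Wnt-lung DIO and metM-Wnt-liver Con and DIO, and above 10 in E0771 ConSul and metM-Wnt-lung Con, whose ranges overlapped with their partners'.

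For Myh7 the medians of all 12 sets lay between 4.20 (metM-Wnt-liver DIO) and 4.92 (E0771 ConSul). Its highest arrays were 8.83 in metM-Wnt-lung DIOSul, 8.44 in E0771 DIOSul, 8.22 in metM-Wnt-lung ConSul, 8.18 in E0771 Con and 8.10 in metM-Wnt-liver DIO. Some sets held more than 1 high array, as metM-Wnt-lung Con with 6.84 and 7.14 and E0771 DIOSul with 6.18 beside its 8.44.

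**Figure D4:**
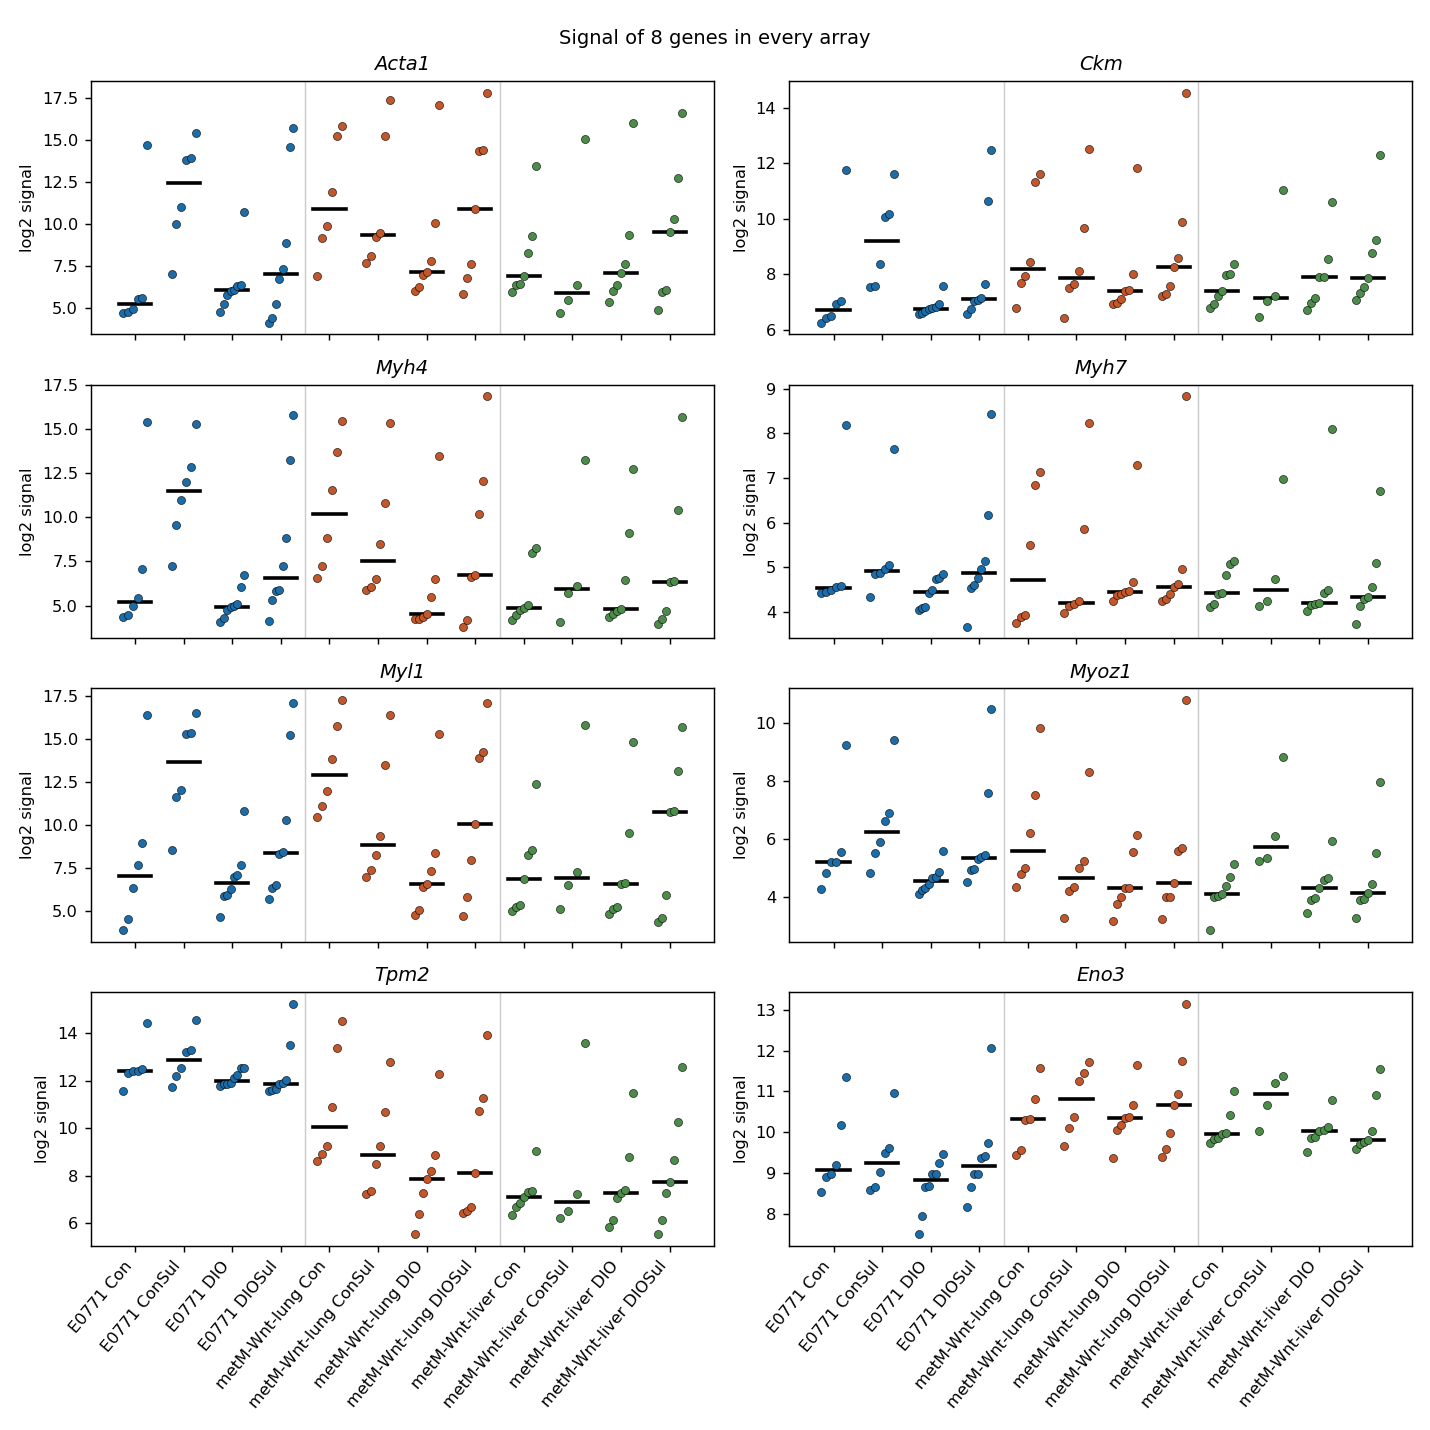
Log2 signal of Acta1, Ckm, Myh4, Myh7, Myl1, Myoz1, Tpm2 and Eno3 in every array, by set. Each point is 1 array and the bars are set medians. In E0771 Con the array Con 1 stands far above the other 5 for Acta1, Ckm, Myh4 and Myh7, and Tpm2 is at 11.56 or above in all E0771 arrays.

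Conditions were compared within each line by limma, with p-values adjusted over 19505 genes and a gene called at an adjusted p under 0.05. The members varied far more between replicates than most genes. Their median standard error per comparison of 2 groups was 0.86 to 1.31 log2 units, against 0.19 to 0.23 for all genes. They also rose together across arrays (r of 0.74 to 0.98), so a few tumors can set the sign of most members. Counts of members higher or lower, within or between lines, are therefore not counts of separate observations. DIO minus Con and DIO minus DIOSul share the DIO tumors, Con minus ConSul shares the Con tumors with the former, and DIOSul minus ConSul shares both of its groups with other comparisons, so they are not independent. Values without the listed arrays are given as a description with no test, because those arrays were listed on the levels of these same members.

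In E0771, tumors of obese mice (DIO) had lower values than Con for 39 of 40 members, with a median difference of -0.83 (all genes 0.00). None was called by limma, against 5.17% of all genes. An unadjusted p under 0.05 was held by 0 members and 21% of all genes. The members with the smallest p were the junction protein Trdn at -1.53 (SE 0.84, adjusted p = 0.3001, n = 8 and 6) and Eno3 at -0.84 (SE 0.48, adjusted p = 0.3255). With the listed arrays left out the median was 0.03. Of these tumors only Con 1 is a listed array.

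Between DIO and DIOSul tumors of E0771 all 40 members were lower in DIO, with a median of -1.35. Limma called 0 against 5.03% of all genes, and 2 members and 18.7% of all genes had an unadjusted p under 0.05. Myh4 was lower by 3.17 (SE 1.50, adjusted p = 0.251) and Pvalb by 2.25 (SE 1.09, adjusted p = 0.2607). The DIO values of Pvalb lay between 4.18 and 5.12 and those of DIOSul were 6.04, 9.19, 5.35, 5.74, 6.33, 12.89, 4.92 and 5.24, so 7 of 8 DIOSul tumors exceeded every DIO tumor. Down-weighting variable arrays (limma array weights) raised the counts to 6 members, all lower in DIO, and 4780 of all 19505 genes. Without the listed arrays the median was -0.11 and Pvalb was at -0.89.

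Sulindac in lean E0771 mice went with the widest difference of that line. Con was below ConSul for 39 of 40 members, with a median of -1.40 (all genes 0.01) and medians of -3.13 over the 12 fast and -1.16 over the 7 slow genes. Acta1 was 14.74, 5.54, 4.74, 4.78, 4.96 and 5.60 in Con and 13.95, 15.47, 10.02, 11.06, 7.04 and 13.84 in ConSul. The difference was -5.17 (SE 1.85, adjusted p = 0.4279 by limma, n = 6 and 6), and Con 1, a listed array, lay inside the ConSul range. Myl1 differed by -5.25 (SE 1.88, adjusted p = 0.4279). Limma called 0 members and 0% of all genes, while 10 of 40 members and 8.39% of all genes had an unadjusted p under 0.05. The 10 were Acta1, Atp2a1, Des, Myh4, Myl1, Mylpf, Tnnc2, Tnni2, Tnnt1 and Tnnt3. With the 4 listed arrays of these groups and the 2 of DIOSul left out the median was -1.09.

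DIOSul minus ConSul in E0771 had a median of -1.10, with 38 of 40 members lower in DIOSul. None was called by limma, against 0.0974% of all genes. The 1 member at an unadjusted p under 0.05, against 13.1% of all genes, was Mylpf at -2.81 (SE 1.37, adjusted p = 0.3825). Acta1 followed at -3.50 (SE 1.73, adjusted p = 0.3888). Without listed arrays the median was -0.79. The difference between the sulindac contrasts of obese and lean mice called 0 members (0.405% of all genes). In it 0 members and 14.3% of all genes had an unadjusted p under 0.05 by limma. The smallest p of a member was that of Acta1 at 3.21 (SE 2.44, adjusted p = 0.5946).

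In metM-Wnt-lung, DIO was below Con for 38 of 40 members, with a median of -1.89 (all genes 0.04), -3.11 over fast and -0.52 over slow genes. Myl1 was 17.28, 13.84, 11.97, 10.47, 11.12 and 15.75 in Con and 6.37, 6.58, 4.75, 7.33, 8.35, 15.30 and 5.05 in DIO. It fell by 5.73 (SE 1.96, adjusted p = 0.03058 by limma, n = 7 and 6) and was the 1 member called, against 27.4% of all genes and 13.4% lower in DIO. All DIO tumors but DIO 6 lay below all Con tumors, and DIO 6 lay inside the Con range. Leaving out any of Con 1, Con 2, Con 6, DIO 1, DIO 3 or DIO 7 took the count to 0, and leaving out DIO 6 raised it to 6. The share of all genes called in those fits is not given here. Tnnc2 came next at -3.46 (SE 1.46, adjusted p = 0.08012). An unadjusted p under 0.05 was held by 6 of 40 members and 39.1% of all genes.

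The same tumors differed in adipocyte genes, 11 of 11 of which were lower in DIO, with scores of 0.47 to 6.28 in Con and -4.16 to 1.68 in DIO. With that score as a covariate Myl1 differed by -8.89 with an adjusted p of 0.1127. Without the listed arrays the members' median was -0.66, with Myl1 at -4.78 and Tnnc2 at -1.91. That leaves 3 Con arrays, all of the set with wide spread. Of the other lists, the sarcomere gene list had 1 of 34 called, Txlnb at -2.01 (adjusted p = 0.007641), and the metabolic list 2 of 12, Cox8b at -2.17 (0.001968) and Phkg1 at -1.91 (0.0455).

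No further metM-Wnt-lung comparison called a member. DIO minus DIOSul had all 40 lower in DIO with a median of -1.10 (0.246% of all genes called). The unadjusted p by limma was under 0.05 for 0 members and 11.8% of all genes. Myl1 was at -2.87 (SE 1.88, adjusted p = 0.6224) and Tnnt3 at -2.58 (SE 1.78, adjusted p = 0.6495). The median without listed arrays was 0.05. Con minus ConSul had 37 of 40 higher in Con with a median of 0.85 (17.4% of all genes called). The unadjusted p was under 0.05 for 0 members and 31.4% of all genes. Tnnc2 was at 2.32 (SE 1.52, adjusted p = 0.3107) and Myl1 at 3.09 (SE 2.03, adjusted p = 0.311). Here 11 of 11 adipocyte genes were called higher in Con. Without listed arrays the median was 0.52. The other sarcomere list had Stac3 (1.01) and Myom3 (0.68) called higher in Con, and the metabolic list Cox8b (1.56).

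DIOSul minus ConSul in metM-Wnt-lung had a median of 0.22 with 0 called by limma (0.226% of all genes). At an unadjusted p under 0.05 were 0 members and 9.33% of all genes. The smallest p of a member was that of Actn2 at 0.93 (SE 1.37, adjusted p = 0.9519). Without listed arrays the median was -0.19, on the other side of 0. For the difference between the sulindac contrasts of metM-Wnt-lung 0 members were called (8.99% of all genes). An unadjusted p under 0.05 was held by 25.2% of all genes and 1 member, Myl1 at -5.96 (SE 2.77, adjusted p = 0.1776).

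The members' median of Con minus ConSul in metM-Wnt-liver was -0.60. Without the listed arrays, of which these groups hold only ConSul 3, it turned to 0.38, so its sign rested on that tumor. In metM-Wnt-liver 35 of 40 members were lower in Con, and Myoz1 was the 1 member called, against 11.4% of all genes and 5.76% lower. It was 4.04, 4.01, 5.15, 4.10, 4.38, 2.86 and 4.69 in Con and 5.34, 5.23, 8.83 and 6.10 in ConSul. The difference was -2.20 (SE 0.68, adjusted p = 0.03762 by limma, n = 7 and 4). The lowest ConSul value, 5.23, lay close to the highest Con value, 5.15. Without ConSul 3 the difference was -1.38 (adjusted p = 0.1998). Leaving out Con 1, Con 2, Con 6 or ConSul 4 also ended the call. Eno3 followed at -0.71 (SE 0.33, adjusted p = 0.1659), and 2 members and 26.6% of all genes had an unadjusted p under 0.05. Of 11 adipocyte genes 10 were called lower in Con, and with the adipocyte score as a covariate Myoz1 was at -2.18 (adjusted p = 0.2271). Stac3 of the other sarcomere list was called at -0.97 (adjusted p = 0.002672).

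The remaining metM-Wnt-liver comparisons called no member. DIO minus Con had a median of 0.26 (0% of all genes called), and without listed arrays the median was -0.28. With all arrays 0 members and 5.36% of all genes had an unadjusted p under 0.05 by limma. Cacng1 was at 0.55 (SE 0.59, adjusted p = 0.9988). DIO minus DIOSul had a median of -0.54 (0% of all genes called), and without listed arrays a median of -0.39. With all arrays 0 members and 7.54% of all genes had an unadjusted p under 0.05, and Myl3 was at -0.45 (SE 0.30, adjusted p = 0.8156). DIOSul minus ConSul had a median of 0.08 (13.2% of all genes called), and its median without listed arrays was 0.51. With all arrays 28.4% of all genes and 1 member, Myoz1 at -1.63 (SE 0.68, adjusted p = 0.114), had an unadjusted p under 0.05. Leaving out DIOSul 3 alone brought the count of called members there to 1. The difference between the sulindac contrasts called 0 members (2.22% of all genes). Myoz1 at 1.86 (SE 0.90, adjusted p = 0.2672) was the 1 member at an unadjusted p under 0.05, against 18.4% of all genes. In DIOSul minus ConSul, Pfkm of the metabolic list was called at -1.24 (adjusted p = 0.02121) and Stac3 at -0.60 (0.04192).

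Whether a contrast differed between lines was tested in 1 fit of all 12 sets, for 4 contrasts and 3 pairs of lines. Of the members only Myoz1 was called, in Con minus ConSul of metM-Wnt-lung less metM-Wnt-liver, at 3.42 (SE 1.32, adjusted p = 0.04048 by limma). In it 29.9% of all genes were called, and 1 member and 40.1% of all genes had an unadjusted p under 0.05. This contrast sets the sets of wide spread on opposite sides. For Con minus ConSul of E0771 less metM-Wnt-lung limma called 0 members and 7.81% of all genes. An unadjusted p under 0.05 was held by 7 of 40 members and 22.9% of all genes. For E0771 less metM-Wnt-liver limma called 0 members and 3.48% of all genes. There 0 members and 18.5% of all genes had an unadjusted p under 0.05. DIO minus Con gave 0 members for each pair, against 6.72% (E0771 less metM-Wnt-lung), 0.0615% (E0771 less metM-Wnt-liver) and 11.5% (metM-Wnt-lung less metM-Wnt-liver) of all genes. At an unadjusted p under 0.05 there were 0, 0 and 4 members, against 22.4%, 11.6% and 26.3% of all genes. DIO minus DIOSul gave 0 members against 0.497%, 0.692% and 0%, and DIOSul minus ConSul 0 against 0%, 7.18% and 2.43%, in the same order of pairs. In all 6 of these, 0 members had an unadjusted p under 0.05, against 3.68% to 22.2% of all genes.

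**Figure D5:**
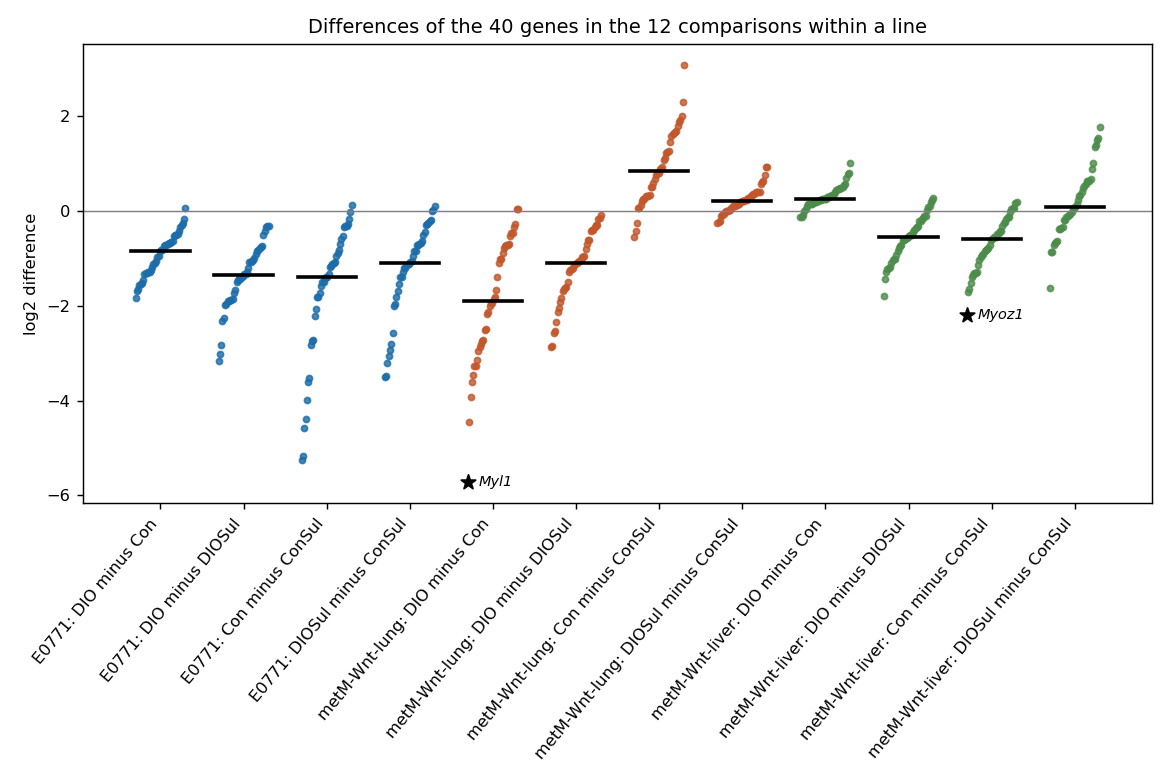
Log2 differences of the 40 genes in the 12 comparisons within a line, 1 point per gene, ordered by size within each comparison. Bars are medians over the 40 genes, from -1.89 (metM-Wnt-lung, DIO minus Con) to 0.85 (metM-Wnt-lung, Con minus ConSul), and the stars mark the 2 calls, Myl1 and Myoz1.

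Between lines, with the 4 conditions weighted equally, Tpm2 was the member with the widest gap. It lay between 11.56 and 15.25 in all 28 E0771 tumors, between 5.55 and 14.52 in metM-Wnt-lung and between 5.56 and 13.59 in metM-Wnt-liver. E0771 was higher by 3.16 than metM-Wnt-lung (SE 0.52, adjusted p = 1.527e-07) and by 4.59 than metM-Wnt-liver (SE 0.53, adjusted p = 5.091e-12). Without the listed arrays the differences were 4.24 and 4.91. Beta tropomyosin is also made by smooth muscle and by non-muscle cells.

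Eno3 went the other way and was lower in E0771 than in metM-Wnt-lung by 1.31 (SE 0.23, adjusted p = 5.68e-07) and than in metM-Wnt-liver by 1.04 (SE 0.23, adjusted p = 7.193e-05). Its set medians were 8.835 to 9.26 in E0771 and 9.82 to 10.945 in the other lines. Without the listed arrays it was lower by 1.20 and 1.31. Acta1 was lower in E0771 than in metM-Wnt-lung by 2.29 (SE 1.001, adjusted p = 0.04051), Tnnc1 by 0.89 (SE 0.35, adjusted p = 0.02157) and Tnni1 by 1.06 (SE 0.41, adjusted p = 0.02156). Without the listed arrays the Acta1 difference was -1.36, and all 3 calls were lost without the sets of wide spread.

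In all, 5 of 40 members were called between E0771 and metM-Wnt-lung against 63.1% of all genes, and 2 of 40 between E0771 and metM-Wnt-liver against 62.8%. Between metM-Wnt-lung and metM-Wnt-liver 40 of 40 were higher in metM-Wnt-lung, with a median of 0.88. Limma called 0 members and 17.3% of all genes. An unadjusted p under 0.05 was held by 5 of 40 members and 27.1% of all genes. Whether the 3 lines were normalized together is not stated in the sources used here, so levels set across lines carry that limit.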

How the data were processed

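Whole mammary tumors were lysed by bead beating in TRIzol, RNA was purified on columns, and biotin-labelled targets were hybridized to Clariom S Mouse HT arrays, 1 per tumor. The authors made the deposited log2 signals with SST-RMA in Transcriptome Analysis Console. The table holds 22206 transcript clusters for 79 arrays without missing values, and it was used as deposited. Array medians lay between 6.285 and 6.805. Arrays have no read depth, and the 4 to 8 tumors of a set limit the precision. Replicates are separate mice, grouped by the sample labels.

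Gene symbols came from the platform table. Of the transcript clusters, 19572 had 1 symbol and 2634 none. For 55 genes with several clusters the one with the highest mean was kept, which left 19505 genes. The members and lists were chosen with earlier results of these data known, so no p-value was adjusted over a list alone, no score was tested and no list was tested for enrichment.

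The 4 conditions of a line were fitted together, without covariates, in limma 3.58.1 (R 4.3.3), and a fit of 12 sets compared the lines. All p-values had Benjamini-Hochberg adjustment across the 19505 genes, with a threshold of 0.05. The fit was first tested on simulated data. Named members were those called, otherwise the 2 with the smallest p. Acta1, Ckm, Myh4 and Myh7 were described throughout. Promoter windows came from RefSeq (GRCm38.p6). Alternatives covered scaling, variance models, array weights, filters, the groups and lines in the fit, the replicate number, adipocyte score, exchanged Con and ConSul labels, sets of wide spread, listed arrays and each array left out. Leaving out arrays high in keratinocyte genes, and the members' median without the listed arrays, were added after seeing the data.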

Additional observations from a re-analysis of the deposited data

Results flagged for a closer look

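Single arrays stood far above the rest of their set. Over the array score and 8 members in the 12 sets, 108 groups of values, the gap between the highest array and the next, as a share of the group's whole range, passed Dixon's limit in 32. Chance flags about 1 in 20 groups, and values of members in 1 array are not independent. In every case the high end was concerned, and 10 arrays were named.

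For the array score the shares were 0.956 in E0771 Con (Con 1, 5.29 against -0.33 for the next), 0.78 in E0771 DIO (DIO 3), 0.847 in metM-Wnt-lung DIO (DIO 6), 0.622 in metM-Wnt-liver Con (Con 5), 0.957 in metM-Wnt-liver ConSul (ConSul 3), 0.748 in metM-Wnt-liver DIO (DIO 7) and 0.585 in metM-Wnt-liver DIOSul (DIOSul 3). E0771 DIO 3, at 0.67, and metM-Wnt-liver Con 5, at 1.58, are the highest of their sets without being listed. The same arrays stood out for Acta1, with shares of 0.914 in E0771 Con, 0.732 in E0771 DIO, 0.631 in metM-Wnt-lung DIO, 0.841 in metM-Wnt-liver ConSul and 0.625 in metM-Wnt-liver DIO. For Ckm they were 0.859 in E0771 Con, 0.644 in E0771 DIO, 0.778 in metM-Wnt-lung DIO, 0.636 in metM-Wnt-lung DIOSul (DIOSul 5), 0.834 in metM-Wnt-liver ConSul and 0.589 in metM-Wnt-liver DIOSul.

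Myh4 gave 0.757 in E0771 Con and 0.752 in metM-Wnt-lung DIO. The slow Myh7 gave 0.963 in E0771 Con, 0.779 in E0771 ConSul (ConSul 2), 0.859 in metM-Wnt-lung DIO, 0.847 in metM-Wnt-lung DIOSul and 0.887 in metM-Wnt-liver DIO. Myl1 gave 0.659 in metM-Wnt-lung DIO. Myoz1 gave 0.738 in E0771 Con and 0.676 in metM-Wnt-lung DIOSul. Tpm2 gave 0.675 in E0771 Con, 0.622 in metM-Wnt-liver Con and 0.864 in metM-Wnt-liver ConSul, and Eno3 gave 0.601 in E0771 DIOSul (DIOSul 6). E0771 Con 1 was named for 7 measures and metM-Wnt-lung DIO 6 for 6.

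A difference between lines was called. The Con minus ConSul difference of Myoz1 was 3.42 larger in metM-Wnt-lung than in metM-Wnt-liver (SE 1.32, adjusted p = 0.04048 by limma over all genes). It compares the sets of wide spread, ConSul of metM-Wnt-liver and Con of metM-Wnt-lung, with their partners, and the part of that spread in it was not tested.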

How the results depend on the processing

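Counts of called members kept to at most 1 in most settings. The direction of the Myl1 call was unchanged, also with exchanged labels, where the difference was -2.64. That of the Myoz1 call was unchanged except where labels were exchanged. Leaving out the listed arrays, which were chosen on these same genes so that the counts test nothing, gave for E0771 1 member against 3.27% of all genes in DIO minus Con, 1 against 4.02% in DIO minus DIOSul, and 1 against 0.00513% in both Con minus ConSul and DIOSul minus ConSul. It gave 11 against 14% for metM-Wnt-lung DIO minus Con, 4 against 5.58% for its Con minus ConSul, and 2 against 8.09% for metM-Wnt-liver DIOSul minus ConSul. Between lines it gave 8 (with 11125 of 19505 genes) for E0771 minus metM-Wnt-lung, 13 (11513 genes) for E0771 minus metM-Wnt-liver and 1 (2329 genes) for metM-Wnt-lung minus metM-Wnt-liver. Array weights gave 6 for E0771 DIO minus DIOSul, with 4780 genes. For metM-Wnt-lung DIO minus Con, all 3 lines in 1 fit gave 4 (Mb, Myl1, Tnnc2 and Tpm2), while the adipocyte covariate and exchanged Con and ConSul labels each gave 0, and leaving out 1 array gave 0 to 6, with 2 without DIOSul 5. The Myl1 difference then lay between -7.00 and -4.95. For metM-Wnt-liver Con minus ConSul, all 3 lines in 1 fit, trended robust variances, only genes above the median signal (which leaves Myoz1 out) and the adipocyte covariate each gave 0, and leaving out 1 array gave 0 to 1. Myoz1 was at 2.20 with exchanged labels, by construction, and leaving out 1 array moved it between -2.58 and -1.38. For metM-Wnt-liver DIOSul minus ConSul leaving out 1 array gave 0 to 1. Between E0771 and metM-Wnt-lung, genes above the median signal gave 3 and leaving out the sets of wide spread 2, with Tnnc1 at -0.67 (adjusted p = 0.1307) and Tnni1 at -0.89 (0.08265). Between metM-Wnt-lung and metM-Wnt-liver, genes above the median signal gave 1. In the main fit 27.4% of all genes were called for metM-Wnt-lung DIO minus Con. The main shares for metM-Wnt-liver were 11.4% in Con minus ConSul and 13.2% in DIOSul minus ConSul. Between lines they were 63.1% for E0771 minus metM-Wnt-lung and 17.3% for metM-Wnt-lung minus metM-Wnt-liver. Where the share in a setting is not given, its count is not read as a result about the members. The 34 other sarcomere genes listed 10 arrays in place of 18, all among the 18. The causes of these changes were not tested.

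The replicate numbers do not pair the mice. Arrays with the same number in different conditions of a line had a mean correlation of 0.043 in the metM-Wnt-lung, -0.0116 in the metM-Wnt-liver and -0.0069 in the E0771 arrays, and 5 of 26, 1 of 25 and 3 of 28 arrays correlated best with their own number. With the replicate block metM-Wnt-lung DIO minus Con gave 0 calls, Myl1 being at -5.30 (adjusted p = 0.05151), and the other 14 comparisons kept their counts.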
